A study of Mus musculus with 4 samples.

Results

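The PI3K, Akt and mTOR pathway was described here through 45 genes, chosen by symbol and role with earlier results of these data known, of 50600 genes counted in each library. All 45 symbols were found through their gene identifiers in the mouse annotation. The study holds 4 RNA-seq libraries of primary T cells from mice of strain C57BL/6NJ, labelled as replicates 1 to 4 of a single group. Per the file headers, the cells were Th0, activated, sorted and taken at 72 h. Th0 is the usual name for CD4+ T cells activated without cytokines that steer them to a helper lineage. No allele, second treatment, age or sex is given, and there is no unstimulated or otherwise treated group, so nothing below compares conditions. The labels list 1 donor entry for the libraries together, and whether separate animals or cultures stood behind them is not stated. Every spread and p-value therefore covers only these 4 libraries, and may be technical in part.

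In T cells, engagement of the antigen receptor and of costimulatory receptors recruits class I PI3K, a lipid kinase made of a catalytic and a regulatory subunit, to the membrane. Its product draws the kinases Pdpk1 and Akt to the membrane, and Akt relieves the block that the TSC complex puts on the small GTPase Rheb, the direct activator of mTOR complex 1 (mTORC1). Amino acids reach mTORC1 by another route, through Rag GTPases on the lysosome, while AMPK, the sensor of low energy, restrains it. The pathway is known in activated T cells for driving growth, protein synthesis and glycolysis. RNA levels say nothing of the phosphorylation steps by which it works.

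The libraries held 34978213, 118937382, 42274502 and 95356041 assigned fragments in replicates 1 to 4, of which the 45 genes took 0.395, 0.417, 0.425 and 0.420%. All 8 T cell genes averaged between 252.8 and 1892 TPM, with Cd4 at 938.2 to 1008 TPM and Cd8a at 0.0636 to 0.511 TPM. TPM is a level scaled to the exonic length of the gene and to the size of the library. Of 29 markers of other cells, 10 had no fragment in any library, among them Lyz2, S100a8, Itgax, Krt8 and Cdh5. Another 11 averaged below 1 TPM, and the highest was Cd8b1 at 21.4 TPM, followed by Eomes at 4.39 and Epcam at 3.26. In bulk RNA, fewer cells of a type and less RNA per cell cannot be told apart. The libraries were not alike in every gene. Xist, the RNA of the inactive X chromosome, was at 278.4 and 315.9 TPM in replicates 1 and 2 and at 1.25 and 0.586 TPM in replicates 3 and 4, so that the libraries fell into a pair with high Xist and a pair with low Xist. Malat1, a nuclear long RNA, was at 348.0 and 246.0 TPM in replicates 1 and 3, the shallower libraries, and at 63.2 and 59.3 TPM in replicates 2 and 4.

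Of the 45 genes, 42 (93.3%) stood at 1 TPM or more in all 4 libraries, beside 12354 of the 14269 genes with enough counts for a test (86.6%). With merged exon lengths the exceptions were Pik3r6, Deptor and Sgk1. By mean level, 7 genes lay above 100 TPM, 30 between 10 and 100, 5 between 1 and 10 and 3 below 1. The median of the 45 means was 37.1 TPM, beside 20.1 TPM over the genes tested. All 45 passed that count filter. The 7 most abundant came from several steps of the pathway, with Prkag1 and Stk11 sharing that of AMPK. In falling order of mean they were Pik3cd, Akt1, Prkag1, Rps6ka1, Gsk3a, Rraga and Stk11. This order holds for merged exon lengths. With principal transcript lengths Akt1, at 269.5 TPM, was above Pik3cd, at 246.3 TPM. Lamtor1, at 162.8 TPM, was then above Prkag1, at 161.5 TPM, and Rraga, at 108.8 TPM. Rps6ka1, Gsk3a and Stk11, at 202.0, 190.1 and 173.8 TPM, were also above Prkag1. Stk11 and Inpp4b, the latter at 137.8 TPM, were above Rraga. The merged exons of Lamtor1 and Inpp4b, over which fragments were counted, are 2.87 and 3.17 times as long as their principal transcripts. Their levels with principal lengths may therefore be too high. In the full order of levels, 21 of 44 neighbouring pairs kept their order in all 4 libraries, and the order of the other pairs differed between libraries.

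**Figure D1:**
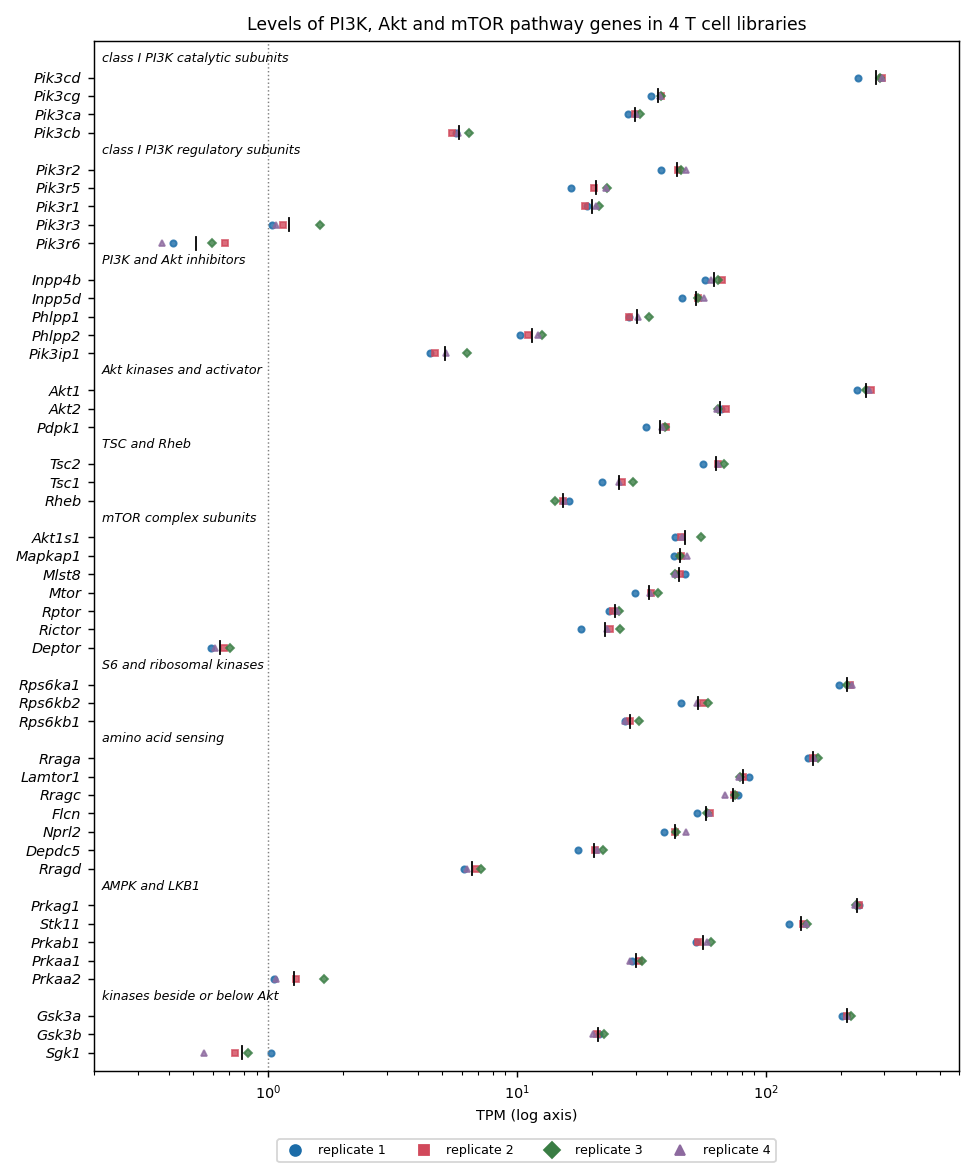
Level of each of the 45 genes, in TPM on a log axis, by role. Each symbol is 1 library, the black tick is the mean of 4, and the dotted line marks 1 TPM. Pik3cd, Akt1 and Prkag1 lie at the right edge with means of 276.8, 252.8 and 232.8 TPM, while Pik3r6, Deptor and Sgk1 have means left of the line.

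The class I catalytic subunits were dominated by the delta isoform. Pik3cd, the isoform known for its restriction to leukocytes (ENSMUSG00000039936.18, chr4:149649168-149702571, minus strand, mm10), stood at 233.7, 291.9, 288.6 and 293.0 TPM across replicates 1 to 4. Replicate 1 was below the other 3, which lay close together. Its mean of 276.8 ± 28.8 TPM (SD, n = 4) was higher than 95.7% of the genes tested. Pik3cg, the gamma isoform that answers to G protein-coupled receptors (chr12:32173473-32208659, minus strand), had 34.7, 38.1, 37.8 and 37.7 TPM. Replicate 1 was again the lowest. Pik3ca, the widely expressed alpha isoform (chr3:32397671-32468486, plus strand), had 27.99, 29.7, 31.2 and 30.2 TPM. Pik3cb, the beta isoform (chr9:99036654-99140621, minus strand), had 5.70, 5.49, 6.40 and 5.79 TPM, and its level is less certain than the others because 5.19% of its 50-base stretches also occur in other genes. The lowest library of Pik3cd lay far above the highest library of each other isoform.

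Pik3cd accounted for 79.1 ± 1.21% of the summed TPM of the 4 catalytic subunits (SD, n = 4), Pik3cg for 10.6 ± 0.558%, Pik3ca for 8.55 ± 0.512% and Pik3cb for 1.68 ± 0.174%. Within a library, log2 TPM of Pik3cd was higher than that of Pik3ca by 3.21 ± 0.11, than that of Pik3cb by 5.54 ± 0.17 and than that of Pik3cg by 2.89 ± 0.10 (SD, n = 4). Each difference had the same direction in 4 of 4 libraries. The exact two-sided sign-flip permutation test gave p = 0.125 for each, the smallest p that 4 libraries allow, and 0.132 after Benjamini-Hochberg adjustment over the 18 contrasts computed between partners and paralogs. No contrast of this kind can therefore pass 0.05, and direction and size relative to the spread are what they give. Between-gene levels rest on the exonic length used. The 3 differences for Pik3cd were 3.53, 5.73 and 2.72 with the length of the longest principal transcript in place of the merged exons.

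Among the regulatory subunits, Pik3r1 and Pik3r2 were closer in level than Pik3cd was to any other catalytic subunit, while Pik3r3 was low. Class IA subunits hold the alpha, beta and delta catalytic subunits in check and carry them to phosphorylated receptors. Pik3r1, the major one in many tissues (chr13:101680563-101768217, minus strand), had 19.2, 18.8, 21.3 and 20.8 TPM. Pik3r2 (chr8:70768176-70776713, minus strand) had 37.9, 44.5, 45.7 and 47.7 TPM, above Pik3r1 in each library. Pik3r3 had 1.04, 1.15, 1.62 and 1.07 TPM, with replicate 3 the highest. Its level is uncertain, since 24.3% of its exonic bases lie on the same strand as an overlapping gene model, Gm49337. Pik3r1 made up 30.8 ± 1.71% of the class IA regulatory TPM, Pik3r2 67.4 ± 1.82% and Pik3r3 1.87 ± 0.344%. Log2 TPM of Pik3r1 was lower than that of Pik3r2, with a difference of -1.13 ± 0.12, and higher than that of Pik3r3 by 3.95 ± 0.23, each in 4 of 4 libraries (p = 0.125 by the exact sign-flip test, 0.132 after adjustment). Pik3r1 has the longer exons, 10079 bases against 4176 in Pik3r2, and the order of this pair turned when levels were not divided by length: on the CPM scale, counts scaled to library size alone, Pik3r1 minus Pik3r2 was 0.14. With principal transcript lengths it was -1.03.

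The partners of the gamma isoform, Pik3r5 and Pik3r6, differed far more from each other than Pik3r1 did from Pik3r2. Pik3r5 had 16.5, 20.4, 23.1 and 22.8 TPM, with replicate 1 below the rest. Pik3r6 had 0.416, 0.674, 0.596 and 0.374 TPM, on 17, 89, 28 and 40 fragments in replicates 1 to 4. The difference, Pik3r5 minus Pik3r6, was 5.10 ± 0.36 log2 TPM in favour of Pik3r5 in 4 of 4 libraries (p = 0.125 by the exact sign-flip test, 0.132 after adjustment). These genes are neighbours on chromosome 11, at chr11:68432121-68497849 and chr11:68503019-68552698, both on the plus strand.

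Brakes on PI3K lipids and on Akt were present at a range of levels. Inpp5d encodes SHIP, a lipid phosphatase of blood cells that removes a phosphate from the PI3K product, and had 45.9, 53.4, 53.4 and 56.7 TPM. Inpp4b, which acts on a later lipid of the same chain, had 57.2, 66.9, 64.1 and 60.2 TPM. Inpp5d lay below Inpp4b in 4 of 4 libraries, by a difference of -0.25 ± 0.11 log2 TPM. That gap is small, and it was -1.29 with principal transcript lengths, because the merged exons of Inpp4b span 13066 bases against 4120 in its principal transcript. The -1.29 divides fragments counted over all 13066 bases by 4120, so it may overstate the level of Inpp4b. Phlpp1 and Phlpp2 are phosphatases that remove the hydrophobic motif phosphate of Akt. Phlpp1 had 28.3, 28.3, 34.1 and 30.6 TPM and Phlpp2 10.3, 11.1, 12.6 and 12.2 TPM, a difference of 1.38 ± 0.06 log2 TPM in the same direction in each library. Pik3ip1, a membrane protein that inhibits PI3K and is known to be lost from T cells on activation, had 4.48, 4.67, 6.30 and 5.20 TPM, the lowest mean of these 5 genes. With no resting T cells in the study, whether its level changed cannot be told.

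Akt1 stood above Akt2. Akt1 (ENSMUSG00000001729.14, chr12:112653821-112674884, minus strand) had 232.5, 264.5, 253.5 and 260.8 TPM, and Akt2 (chr7:27591552-27640826, plus strand) had 65.9, 69.2, 64.1 and 63.9 TPM. Akt1 thus made up 79.3 ± 1.04% of the TPM of the pair (SD, n = 4). Log2 TPM of Akt1 exceeded that of Akt2 by 1.94 ± 0.09 in 4 of 4 libraries (p = 0.125 by the exact sign-flip test, 0.132 after adjustment). Reads of Akt2 are shared in part with a pseudogene, Akt2-ps, in 9.76% of its 50-base stretches. Pdpk1, the kinase that phosphorylates the activation loop of Akt, had 33.2, 39.7, 39.5 and 38.5 TPM. Of the kinases beside or below Akt, Gsk3a had 201.8, 212.9, 219.9 and 212.0 TPM and Gsk3b 21.4, 20.9, 22.4 and 20.3 TPM. Both are glycogen synthase kinases that Akt inhibits. Gsk3a exceeded Gsk3b by 3.31 ± 0.07 log2 TPM in 4 of 4 libraries, and by 1.55 on the CPM scale. Sgk1, a relative of Akt that depends on mTORC2, was near the bottom with 1.03, 0.739, 0.834 and 0.552 TPM on 57, 132, 53 and 80 fragments.

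Tsc2 was the higher of the subunits that give the TSC complex its name. Tsc2, the GTPase-activating subunit that acts on Rheb (chr17:24595937-24632629, minus strand), had 55.8, 64.5, 68.1 and 64.3 TPM. Tsc1, which stabilizes it (chr2:28641228-28691167, plus strand), had 21.9, 26.3, 29.2 and 25.8 TPM. In both genes replicate 1 was lowest and replicate 3 highest. Tsc1 lay below Tsc2 by a difference of -1.29 ± 0.06 log2 TPM in 4 of 4 libraries, and the difference was -0.67 with principal transcript lengths and -0.32 on the CPM scale. Rheb (chr5:24802823-24842624, minus strand) had 16.2, 15.3, 14.2 and 15.4 TPM. That value is the most dependent on gene length of all 45. The merged exons of Rheb cover 7721 bases and its principal transcript 1784. With principal transcript lengths for all genes its mean was 46.2 TPM instead of 15.3 TPM. The 46.2 TPM divides fragments counted over all 7721 bases by 1784, so it may be too high.

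mTOR itself and the subunits of its complexes had means from 22.7 TPM in Rictor to 47.4 TPM in Akt1s1, apart from Deptor. With principal transcript lengths these means ran from 15.9 TPM in Rictor to 58.0 TPM in Akt1s1. Mtor (ENSMUSG00000028991.15, chr4:148448611-148557683, plus strand), the kinase of both complexes, had 29.9, 34.5, 37.0 and 34.1 TPM. Mlst8, its small partner in both, had 47.4, 45.4, 43.3 and 43.1 TPM. Mtor minus Mlst8 was -0.40 ± 0.19 log2 TPM, with Mtor lower in 4 of 4 libraries, but 0.03 with principal transcript lengths and 1.18 on the CPM scale. The principal transcript of Mlst8, from a later annotation release, has 3855 bases, more than the 3366 exonic bases counted. The 0.03 thus rests in part on bases that were not counted, and no order of this pair is established. Rptor encodes raptor, which defines mTORC1, and had 23.5, 24.4, 25.8 and 25.3 TPM. Rictor defines mTORC2 and had 18.1, 23.6, 26.0 and 22.9 TPM, with replicate 1 set below the others. Rptor minus Rictor was 0.14 ± 0.17 log2 TPM, with Rptor higher in 3 of 4 libraries (p = 0.25 by the exact sign-flip test, 0.25 after adjustment). This difference was smaller than its spread, and without replicate 1 it was 0.06. With principal transcript lengths it was 1.16 ± 0.17, and on the CPM scale 0.67 ± 0.17. Rptor was higher in 4 of 4 libraries on both of these scales. Mapkap1, which encodes the mTORC2 subunit Sin1, had 42.6, 45.5, 45.2 and 48.5 TPM.

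The complexes' inhibitors parted. Akt1s1 encodes PRAS40, an Akt substrate that inhibits mTORC1, and had 43.1, 45.8, 54.7 and 46.1 TPM. Deptor, which inhibits both complexes, had 0.589, 0.665, 0.704 and 0.614 TPM on 59, 215, 81 and 161 fragments. Akt1s1 minus Deptor was 6.00 ± 0.08 log2 TPM in 4 of 4 libraries (p = 0.125 by the exact sign-flip test, 0.132 after adjustment), the largest of the 18 contrasts.

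Among the kinases that carry the signal to ribosomes, Rps6ka1 was by far the highest. It encodes the ribosomal S6 kinase RSK1, which is fed by the ERK pathway and also phosphorylates Tsc2, and had 197.5, 218.5, 212.7 and 221.5 TPM. Rps6kb1 and Rps6kb2 encode the S6 kinases that mTORC1 activates. Rps6kb1 had 27.3, 28.5, 30.8 and 27.2 TPM and Rps6kb2 45.6, 56.1, 58.5 and 52.8 TPM. Rps6kb1 minus Rps6kb2 was -0.90 ± 0.11 log2 TPM, with Rps6kb1 lower in each library. It was 0.92 on the CPM scale and 0.65 with principal transcript lengths. The principal transcript of Rps6kb2, from a later annotation release, has 4586 bases, more than the 2445 exonic bases in which its fragments were counted. The 0.65 thus divides by bases that were not counted, and no order of these kinases is established.

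Amino acid sensing genes were all present. Rag GTPases work as pairs of an A or B form with a C or D form. Rraga (chr4:86575668-86577285, plus strand), the A form, had 148.2, 154.9, 162.6 and 156.3 TPM. Rragc, the C form, had 77.5, 74.4, 75.1 and 68.6 TPM, and Rragd, the D form, had 6.13, 6.84, 7.16 and 6.32 TPM. Rragc exceeded Rragd by 3.46 ± 0.12 log2 TPM in 4 of 4 libraries. Lamtor1, which anchors the Rag complex on the lysosome, had 86.0, 80.7, 79.0 and 78.0 TPM, and this level is uncertain because 8.09% of its 50-base stretches occur in other genes. Flcn encodes folliculin, which acts on the C and D forms, and had 53.1, 59.9, 58.3 and 59.2 TPM. Depdc5 and Nprl2 are subunits of GATOR1, the complex that switches the A and B forms off. Depdc5 had 17.6, 20.5, 22.1 and 21.03 TPM and Nprl2 39.0, 43.2, 43.5 and 47.8 TPM. Depdc5 minus Nprl2 was -1.09 ± 0.09 log2 TPM and -1.003 with principal transcript lengths, but 1.45 on the CPM scale.

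Of the AMPK alpha genes, that of the alpha 1 isoform was the higher. AMPK has a catalytic alpha, a scaffold beta and an AMP-binding gamma subunit. Prkaa1, the alpha 1 gene (chr15:5143861-5181899, plus strand), had 28.9, 30.9, 31.8 and 28.4 TPM. Prkaa2, the alpha 2 gene (chr4:105029874-105109890, minus strand), had 1.06, 1.29, 1.67 and 1.07 TPM. Prkaa1 made up 96.0 ± 0.668% of the alpha TPM, and its log2 TPM was higher by 4.47 ± 0.22 in 4 of 4 libraries (p = 0.125 by the exact sign-flip test, 0.132 after adjustment). Prkag1, a gamma subunit (chr15:98812798-98831508, minus strand), had 236.4, 235.9, 230.5 and 228.4 TPM. Its coefficient of variation in TPM, 1.71%, was the lowest of the 45 genes, but after TMM scaling its highest library was 1.098 times its lowest, beside 1.025 times for Gsk3a. Prkab1, a beta subunit, had 52.6, 53.6, 60.3 and 57.9 TPM. Stk11 encodes LKB1, the kinase that activates AMPK, and had 123.9, 141.7, 146.7 and 144.5 TPM.

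**Figure D2:**
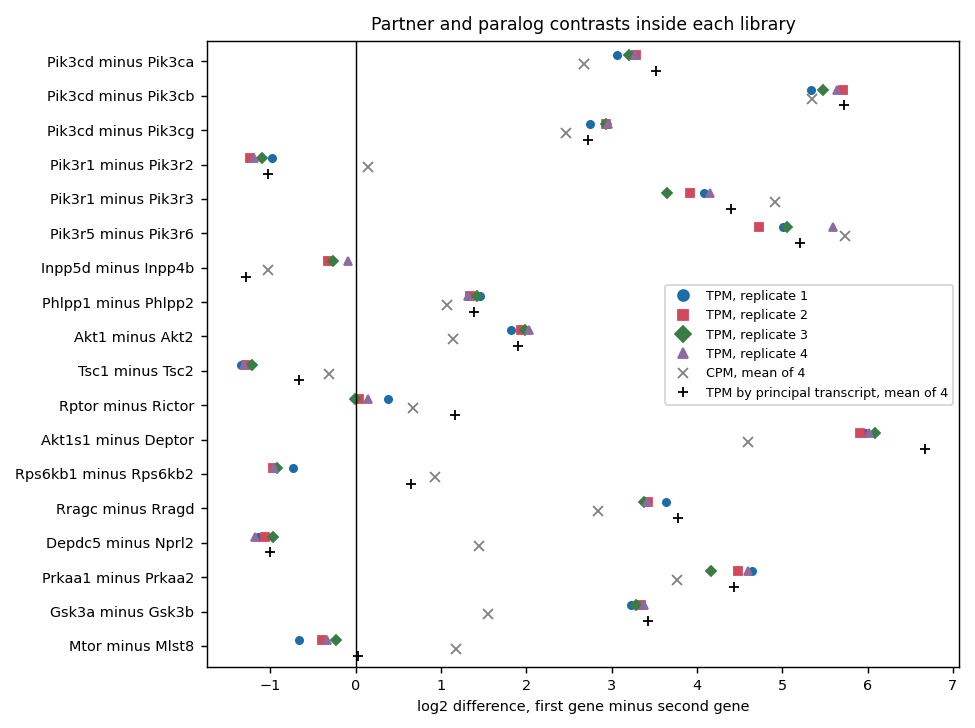
Difference in log2 level between partner or paralog genes inside each library, first gene minus second gene. Coloured symbols are the 4 libraries on the TPM scale, the grey crosses are the mean on the CPM scale and the black plus signs the mean with principal transcript lengths. On the TPM scale 17 of 18 contrasts lie on the same side of 0 in all 4 libraries, and for 14 contrasts the CPM and principal length means lie on that side as well or, for Rptor minus Rictor, share the sign of its mean.

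Of the 18 contrasts, 11 had the first gene higher and 6 the second gene higher in all 4 libraries. Exchange of TPM for CPM turned 4 of them, Pik3r1 minus Pik3r2, Rps6kb1 minus Rps6kb2, Depdc5 minus Nprl2 and Mtor minus Mlst8. Principal transcript lengths turned 2, Rps6kb1 minus Rps6kb2 and Mtor minus Mlst8. The principal transcripts of Rps6kb2 and Mlst8 are longer than the exons in which their fragments were counted. The contrasts led by Pik3cd, Akt1, Gsk3a, Rragc, Prkaa1, Pik3r5, Phlpp1 and Akt1s1 were not among those that turned.

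The spread of the 45 genes between libraries was near that of all genes tested. Their coefficient of variation in TPM ranged from 1.71% in Prkag1 to 27.9% in Pik3r6, with 34 genes below 10% and a median of 7.12%, beside 8.77% over all genes tested. Spread beyond the trend of the genes was tested with an edgeR fit to the counts of all genes, and 0 of 45 genes were called at an adjusted p below 0.05, where 66 of 14269 genes, 0.463%, were called. With so low a share over all genes, a count of 0 among 45 is no result about these genes. limma's variance test called 0 of the 45 and 27 of all genes tested, and edgeR with DESeq2 size factors 0 and 65. With a common dispersion edgeR called 0 of the 45 and 955 of all genes tested. At an unadjusted p below 0.05 stood 2 of the 45 genes (4.44%), beside 812 of all genes tested (5.69%). Those 2 were Rictor, with an edgeR adjusted p = 0.669, and Pik3r5, with an edgeR adjusted p = 0.857. Both were lowest in replicate 1. The most variable members were Pik3r6, Sgk1, Prkaa2 and Pik3r3, with coefficients of variation of 27.9, 25.2, 22.6 and 22.0%. These 4 were among the least abundant genes, as was Deptor, whose coefficient of variation was 8.01%.

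The small differences were not spread evenly over the libraries. Replicate 1 had the lowest TPM in 31 of 45 genes (68.9%), beside 48.0% of all genes tested, and replicate 3 the highest in 26 (57.8%), beside 35.7%. After scaling by the trimmed mean of M values (TMM), replicate 1 was the lowest in 20 of 45 genes (44.4%), beside 31.9% of all genes tested, and replicate 3 the highest in 23 (51.1%), beside 28.4%. The shift was slight. Relative to each gene's mean, the median log2 CPM of the 45 genes was -0.05, -0.00, 0.04 and 0.01 in replicates 1 to 4. Exonic length was set beside this shift. The 45 genes had a median exonic length of 5550 bases, beside 3733 in all genes tested, and across all genes tested Spearman's rho between length and the centred log2 CPM was -0.13 in replicate 1 and 0.19 in replicate 3, with the same library behind every point. Across the 45 genes it was -0.17 and 0.25. The 76 other pathway genes tested, described below, had a median length of 5659 bases and a rho of -0.30 and 0.44. Their median log2 CPM relative to each gene's mean was -0.005 in replicate 1 and -0.025 in replicate 3. After TMM scaling replicate 1 was the lowest in 36.8% of them and replicate 3 the highest in 23.7%. Replicates 1 and 3 are also the shallower libraries with the higher Malat1. The part of length, depth or Malat1 in the shift was not tested.

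**Figure D3:**
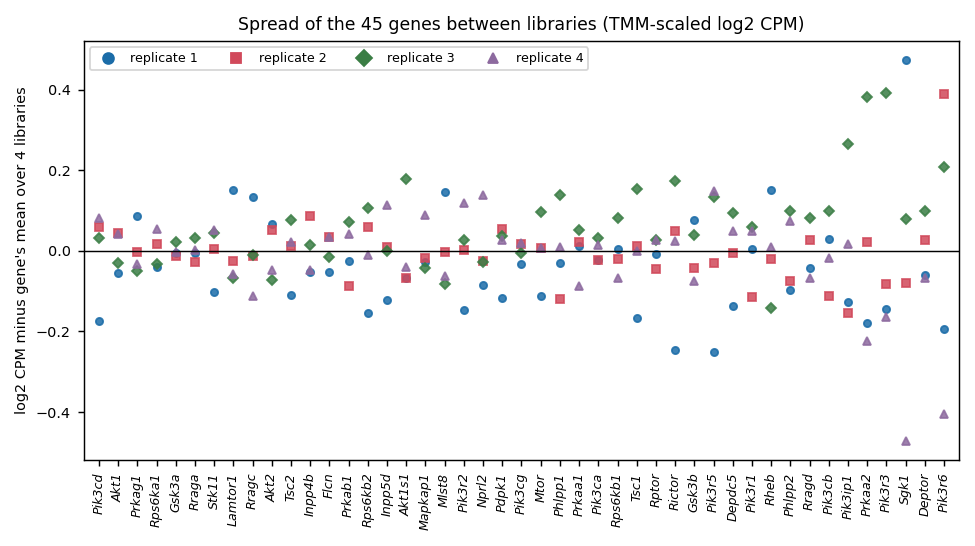
TMM-scaled log2 CPM of each of the 45 genes minus its mean over the 4 libraries, with genes in falling order of mean TPM from left to right. Each symbol is 1 library. Most genes lie within a narrow band around 0, replicate 3 lies above 0 for more genes than replicate 1, and the widest spread is in Sgk1, Pik3r6, Prkaa2 and Pik3r3 at the right.

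Promoter sequence was read for 42 of the 45 genes from RefSeq windows on build GRCm38.p6, each 300 bases long, from 250 bases before to 50 after an annotated start. Pik3r6, Deptor and Rps6kb2 had no window. Short motifs were searched on both strands, and a gene was counted if any of its windows held the letters. CCGGAAG, the core bound by ETS factors, which are abundant in T cells, was in 11 of 42 genes (26.2%), beside 20.5% of the 10130 tested genes with a window and 9.93% of all 27025 genes with one. CACGTG, the E-box bound by Myc and by the lysosomal regulator Tfeb, was in 4 of 42 (9.52%), beside 11.7% and 8.09%. GTAAACA, bound by the forkhead factors that Akt inactivates, was in 4 of 42 (9.52%), beside 3.06% and 4.05%. No motif holds another within its letters. The shares describe letters only, and no test was made of them.

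The E-box genes were Lamtor1, Rheb, Rragc and Sgk1, and the forkhead genes Akt1, Mapkap1, Pik3cg and Stk11. A gene with several windows had more chances to be counted. Sgk1 had 6 windows and Akt1, Mapkap1 and Pik3cg had 2 each, while all 27025 genes together had 32851. The ETS letters came with 12 sites in 11 genes, 10 of them starting within 100 bases of the RefSeq start of their window, which can differ from the start of the gene in the annotation. The windows of Tsc2, Mtor and Lamtor1 are shown whole, the first for its pair of ETS sites, Mtor as the kinase at the centre of the pathway, with its site at the far upstream end, and Lamtor1 because it holds an ETS site and an E-box. Capitals mark the motifs, on the strand of the gene.

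Tsc2 promoter, chr17:24632578-24632877, minus strand: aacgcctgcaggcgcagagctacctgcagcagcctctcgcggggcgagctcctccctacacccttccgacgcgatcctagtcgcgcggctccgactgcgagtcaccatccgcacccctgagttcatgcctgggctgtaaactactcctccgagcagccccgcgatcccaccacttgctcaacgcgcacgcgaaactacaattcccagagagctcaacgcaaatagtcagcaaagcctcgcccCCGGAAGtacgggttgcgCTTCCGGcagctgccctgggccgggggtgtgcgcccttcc

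Mtor promoter, chr4:148448332-148448631, plus strand: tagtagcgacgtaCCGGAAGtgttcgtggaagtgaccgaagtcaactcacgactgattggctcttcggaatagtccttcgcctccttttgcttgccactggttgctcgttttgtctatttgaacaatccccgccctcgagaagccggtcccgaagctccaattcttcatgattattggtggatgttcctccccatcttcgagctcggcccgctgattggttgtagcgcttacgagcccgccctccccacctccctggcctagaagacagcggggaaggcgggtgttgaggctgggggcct

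Lamtor1 promoter, chr7:101905587-101905886, plus strand: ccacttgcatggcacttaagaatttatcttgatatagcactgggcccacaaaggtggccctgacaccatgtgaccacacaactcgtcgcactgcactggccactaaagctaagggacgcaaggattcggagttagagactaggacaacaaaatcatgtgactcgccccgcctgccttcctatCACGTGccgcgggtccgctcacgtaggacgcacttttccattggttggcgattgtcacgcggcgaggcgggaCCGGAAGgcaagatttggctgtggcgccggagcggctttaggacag

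The remaining ETS sites are given with 10 bases on either side, also on the strand of the gene, so that the flanks of the shared core can be compared. Capitals mark the core, spelled CTTCCGG where it lies on the opposite strand.

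Mapkap1, chr2:34406833-34406859, plus strand: agatcggggaCTTCCGGtacgcggggt

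Pik3ca, chr3:32397008-32397034, plus strand: ctccgcctcaCTTCCGGtctttgcagc

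Rraga, chr4:86575613-86575639, plus strand: gatgtcgccaCCGGAAGtgggtggcgg

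Prkab1, chr5:116024449-116024475, minus strand: ctgggcccggCCGGAAGcggaagtggc

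Akt1s1, chr7:44850314-44850340, plus strand: ccgggcgggaCTTCCGGtcccgatccc

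Pik3r2, chr8:70776800-70776826, minus strand: cactcggcagCTTCCGGaggcttgccc

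Nprl2, chr9:107542119-107542145, plus strand: agtagcttcaCTTCCGGgtgcgatgtc

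Prkag1, chr15:98831557-98831583, minus strand: tcagccaccgCCGGAAGggtgggttcc

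The ETS sites of Tsc2 began 8 bases upstream and 10 bases downstream of its RefSeq start, on opposite strands, and that of Mapkap1 began 8 bases upstream. The site of Lamtor1 began 4 bases downstream, and that of Mtor 237 bases upstream. The genes with these letters ran from Mtor and Pik3ca, with means of 33.9 and 29.8 TPM, to Prkag1 and Rraga, with means of 232.8 and 155.5 TPM, and no window of Pik3cd, Akt1 or Gsk3a held them.

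The wider pathway was read from 81 further genes in 6 lists. Of these, 76 had enough counts for a test, 73 stood at 1 TPM or more in every library, and 0 of the 76 were called as varying by edgeR, beside 0.463% of all genes tested. limma's variance test called 0 as well, where it called 27 of all genes tested, and 2 genes (2.63%) had an unadjusted p below 0.05, beside 5.69% of all genes tested. The median of the means of the genes tested was 27.7 TPM. The leading genes of each list are ranked below with merged exon lengths. Of the PI3K accessories, 10 of 11 were at 1 TPM or more in every library, led by the lipid phosphatases Inppl1 at 49.0 ± 3.29 TPM, Inpp5k at 40.2 ± 2.62 and Synj1 at 38.1 ± 3.54 (SD, n = 4). Of the Akt regulators and substrates 9 of 10 were, led by the chaperone Hsp90aa1 at 494.7 ± 21.8 TPM and the phosphatase subunits Ppp2r5c at 128.4 ± 5.98 and Ppp2ca at 111.7 ± 3.38.

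Of the genes of the mTOR complexes and TSC, 8 of 9 were at 1 TPM or more in every library. Ddit4, a stress-induced inhibitor of mTORC1, was the highest at 475.1 ± 37.3 TPM, above every one of the 45 genes, followed by the mTOR assembly factor Tti1 at 58.7 ± 3.73 and Tbc1d7, the other subunit of the TSC complex, at 58.6 ± 4.71. All 22 of the amino acid sensing list were, led by Sec13 at 175.4 ± 3.12 TPM, a subunit of GATOR2, Lamtor5 at 161.7 ± 11.1, a subunit of the lysosomal anchor, and the leucine sensor Sesn2 at 111.6 ± 8.97. Of the mTORC1 outputs 13 of 14 were, led by Rps6 at 644.4 ± 42.6 TPM, the ribosomal protein that S6 kinases phosphorylate, the translation factor Eif4b at 601.8 ± 17.0 and the RNA-binding protein Larp1 at 219.3 ± 8.09. Of the AMPK and SGK partners 11 of 15 were, led by Cab39 at 198.9 ± 5.14 TPM, a partner of LKB1, the kinase Rps6ka4 at 54.8 ± 4.40 and Cab39l, a paralog of Cab39, at 48.7 ± 3.92. These ranks depend on the length used. With principal transcript lengths Inpp5k, at 60.1 TPM, was above Inppl1, at 43.9 TPM. Genes of the same lists that are not named here were then above Synj1, Tbc1d7, Lamtor5, Sesn2, Rps6ka4 and Cab39l. Sgk3 was at 0.830 ± 0.0938 TPM, below 1 in every library, but its mean was 2.20 TPM with principal transcript lengths. Pik3c2g, Tcl1, Prkag3 and Sgk2 had 0 fragments in all 4 libraries, where 3 fragments, the limit that a count of 0 allows, correspond to 0.0252 to 0.0858 CPM. Such limits cover counting error only.

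**Figure D4:**
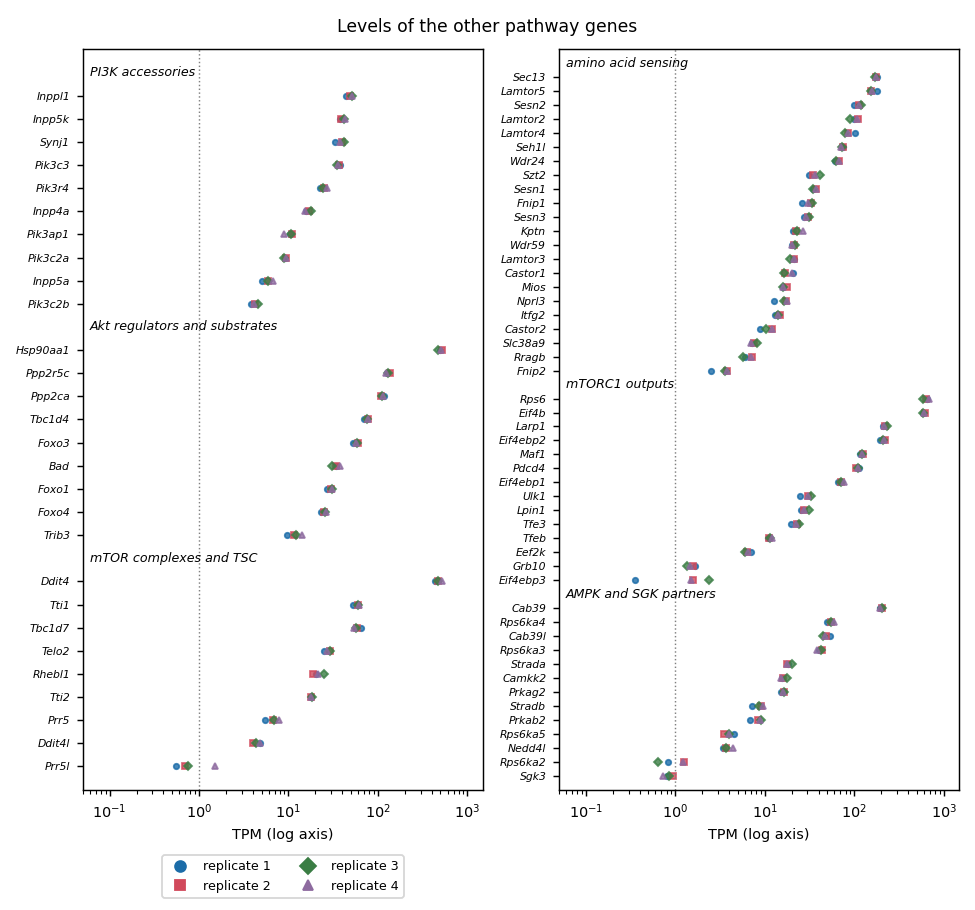
Level of the other pathway genes, in TPM on a log axis, by list. Each symbol is 1 library and the dotted line marks 1 TPM. Rps6, Eif4b, Hsp90aa1 and Ddit4 lie furthest right, and Pik3c2g, Tcl1, Prkag3 and Sgk2, with 0 fragments in every library, are not drawn.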

How the data were processed

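RNA of 4 libraries was sequenced as pairs. The labels call the assay total RNA-seq, while the protocol they link to is named for polyA-selected RNA. The deposited values are raw counts of fragments per gene, made by the authors with featureCounts v1.4.6-p4, both ends mapped, reverse strand setting, GENCODE M13 exons and mm10, per the file headers. Fragments that map to several places or overlap several genes on a strand were not counted, so near-identical or overlapping genes can lose counts. The Length column deposited with the counts is the merged exon length.

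TPM and CPM were computed from the counts here, and log2 values use a pseudocount of 0.1. Symbols came from GENCODE M21, which matched 50376 of 50600 identifiers (99.6%). Spread between libraries was tested with edgeR 4.0.16 (intercept only, TMM, filterByExpr, trended dispersion, goodness of fit, Benjamini-Hochberg over 14269 genes at 0.05), and the procedure was tested on simulated data. Partner genes were compared within libraries with exact sign-flip permutation tests. limma 3.58.1, DESeq2 1.42.0 size factors, a common dispersion, no filter, other pseudocounts, CPM and each library left out were the alternatives. Principal transcript length, from GENCODE M21 rather than the M13 exons counted, was added after seeing the data. The members, lists, markers and contrasts were chosen with earlier results of these data known. Named genes are the 45 members, the markers, the genes of the contrasts and, in the other lists, the 3 of highest mean and those below 1 TPM in every library. For the other lists, 1 gene is not reported here. R 4.3.3 and Python 3.11.15 were used.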

Additional observations from a re-analysis of the deposited data

Results flagged for a closer look

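Of 86 values examined in groups of 4 libraries, 3 had a library standing apart from the others by Dixon's criterion at 95%, where chance gives about 1 in 20 groups, or 4.3 of 86. All 3 concern replicate 1 and catalytic subunits of PI3K, and the contrast shares its values with the levels. Pik3cd stood at 233.7 TPM in replicate 1, below 288.6 to 293.0 TPM in the other libraries. Pik3cg stood at 34.67 TPM in replicate 1, below 37.7 to 38.09 TPM. The difference Pik3cd minus Pik3cg was 2.749 log2 TPM in replicate 1, below 2.928 to 2.955 in the others. After TMM scaling the highest library of Pik3cd was 1.19 times the lowest and that of Pik3cg 1.04 times.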

How the results depend on the processing

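No paired analysis was possible because the study has 1 group. Leaving out each library in turn changed the direction of none of the 18 contrasts and no call among the 45 genes. With CPM in place of TPM, Pik3r1 minus Pik3r2 was 0.14, Rps6kb1 minus Rps6kb2 0.92, Depdc5 minus Nprl2 1.45 and Mtor minus Mlst8 1.18, all reversed, and the shares became 73.4% for Pik3cd, 51.5% for Pik3r1, 68.8% for Akt1 and 93.3% for Prkaa1. With principal transcript lengths, chosen after seeing the data, Rps6kb1 minus Rps6kb2 was 0.65 and Mtor minus Mlst8 0.030. The principal transcripts of Rps6kb2 and Mlst8 are longer than their exons counted, so these values rest in part on bases that were not counted. With principal lengths 33 of 45 mean levels moved by more than their SD. CPM and principal lengths differ from the main scale in the lengths that divide the counts of all genes, and so in the total used for scaling. Levels therefore moved also where a gene's own length was unchanged. With principal lengths the mean of Rraga, 1618 bases in both, went from 155.5 to 108.8 TPM. That of Prkaa2, 7969 bases in both, went from 1.27 to 0.892 TPM. The number of the 45 genes at 1 or more in every library was 43 in CPM and 40 with principal lengths, against 42. The genes below 1 changed too. With principal lengths the means of Pik3r3 and Prkaa2 were 0.860 and 0.892 TPM, and that of Sgk1 was 1.10 TPM. A common dispersion called 1 of the other pathway genes, against 0, and 955 genes in all, against 66. limma called 27, and without replicate 1 edgeR called 41. The cause was not tested. Pseudocounts of 0.01 and 1 changed no direction. Depth limits Pik3r6, Sgk1 and Deptor most, with 17 to 215 fragments a library.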
